A study of Rattus norvegicus with 12 samples.

Results

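The 10 genes described here are tied to the transcriptional coactivators YAP and TAZ, and were followed in rat calvarial bone after cutting with a bur or an Er:YAG laser. They were Cyr61 (now Ccn1), Ctgf (now Ccn2), Ankrd1, Amotl2, Nuak2, Rbms3, Axl, Ajuba, Lats2 and Yap1. Members were the array probes whose gene name column carried one of these symbols, which gave 15 probes for the 10 genes among 45598 rat probes. Of these, 12 probes passed the filter, which asked for a signal well above background in 4 or more of the 12 arrays, so that 9 of the 10 genes were tested among 16381 genes. Ankrd1 did not pass.

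The calvaria of 10-week-old rats was sampled 24 h after surgery, and total RNA was hybridised to 12 single-colour Agilent arrays in 3 groups of 4. In the bur group a rectangular defect of 8 by 3 mm was cut with a rotating bur at a mean feed near 0.75 mm/s. The laser samples had a defect of the same area, cut by passing an Er:YAG laser, whose light is strongly taken up by water, over the bone in 3 strokes (20 Hz, 127 mJ per pulse at the tip, feed near 2 mm/s). Control bone was stripped of periosteum and not cut. The series asks how the bone's gene expression differs after laser ablation, bur drilling and no cutting. No strain, sex or genotype is given in the sources used here, nor whether each sample is a different animal, so that p-values measure only the spread between these samples.

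YAP and TAZ carry no DNA-binding domain of their own and act on genes through the TEAD transcription factors. The Hippo kinases MST and LATS phosphorylate them and hold them in the cytoplasm, whereas a stiff surrounding, cell spreading and tension in the actin cytoskeleton favour their entry into the nucleus. In bone, cells of the osteoblast lineage and osteocytes respond to mechanical load, and Cyr61 and Ctgf, which encode secreted matrix-associated CCN proteins, are widely used readouts of YAP and TAZ activity. Amotl2, Ajuba and Lats2 are both targets and regulators of the pathway, and Yap1 encodes the coactivator itself.

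The TEAD factors recognise the hexamer GGAATG, which reads CATTCC on the other strand. RefSeq promoters of the GRCr8 build were matched for 7 of the 10 genes, and the 250 bases before the gene start were searched on both strands. At least 1 match stood before 6 of the 7 genes. Over all 33469 rat promoters of that length, 12.1% held at least 1 match and 0.0807% held 3 or more. The promoter of Ctgf held 3 matches, at 166, 101 and 92 bases upstream of the start, all on the gene's strand. Cyr61 held 1 match at 113 bases, Amotl2 at 76 bases, Ajuba at 236 bases and Nuak2 at 228 bases, each on the opposite strand. Yap1 held 1 on its own strand at 116 bases, and the window of Axl held none. A match describes the letters and does not show that a factor binds there. The sequences of the 5 genes with a matched promoter that passed the test in at least 1 comparison are printed 5′ to 3′ on the gene's strand, with the hexamer in capitals. They lie at chr1:22624615-22624864 (minus strand) for Ctgf, chr2:237225690-237225939 (minus) for Cyr61, chr15:32000043-32000292 (minus) for Ajuba, chr13:46305756-46306005 (plus) for Nuak2 and chr8:13451438-13451687 (minus) for Yap1.
Ctgf: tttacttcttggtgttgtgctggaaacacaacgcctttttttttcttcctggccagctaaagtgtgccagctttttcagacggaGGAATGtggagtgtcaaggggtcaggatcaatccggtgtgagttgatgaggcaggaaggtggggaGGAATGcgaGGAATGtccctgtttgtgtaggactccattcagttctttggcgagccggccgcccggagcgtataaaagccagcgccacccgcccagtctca
Cyr61: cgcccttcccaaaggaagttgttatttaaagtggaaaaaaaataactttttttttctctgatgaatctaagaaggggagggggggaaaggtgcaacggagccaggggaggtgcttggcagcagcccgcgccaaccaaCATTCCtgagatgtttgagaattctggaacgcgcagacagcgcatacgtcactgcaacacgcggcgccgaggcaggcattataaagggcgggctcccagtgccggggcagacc
Ajuba: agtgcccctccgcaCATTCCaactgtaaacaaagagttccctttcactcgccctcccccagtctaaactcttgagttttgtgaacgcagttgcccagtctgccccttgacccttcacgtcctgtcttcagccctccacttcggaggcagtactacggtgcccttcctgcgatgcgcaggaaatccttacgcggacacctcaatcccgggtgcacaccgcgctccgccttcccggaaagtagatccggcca
Nuak2: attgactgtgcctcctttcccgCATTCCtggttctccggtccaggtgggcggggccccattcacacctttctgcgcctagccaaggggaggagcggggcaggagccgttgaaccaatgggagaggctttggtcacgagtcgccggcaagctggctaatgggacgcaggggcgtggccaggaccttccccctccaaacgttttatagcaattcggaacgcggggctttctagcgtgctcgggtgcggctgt
Yap1: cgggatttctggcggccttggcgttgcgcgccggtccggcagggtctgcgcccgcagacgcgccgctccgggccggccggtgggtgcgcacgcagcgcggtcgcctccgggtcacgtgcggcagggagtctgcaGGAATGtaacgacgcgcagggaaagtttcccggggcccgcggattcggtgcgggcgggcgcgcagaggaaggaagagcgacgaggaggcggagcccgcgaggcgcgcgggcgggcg

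**Figure D1:**
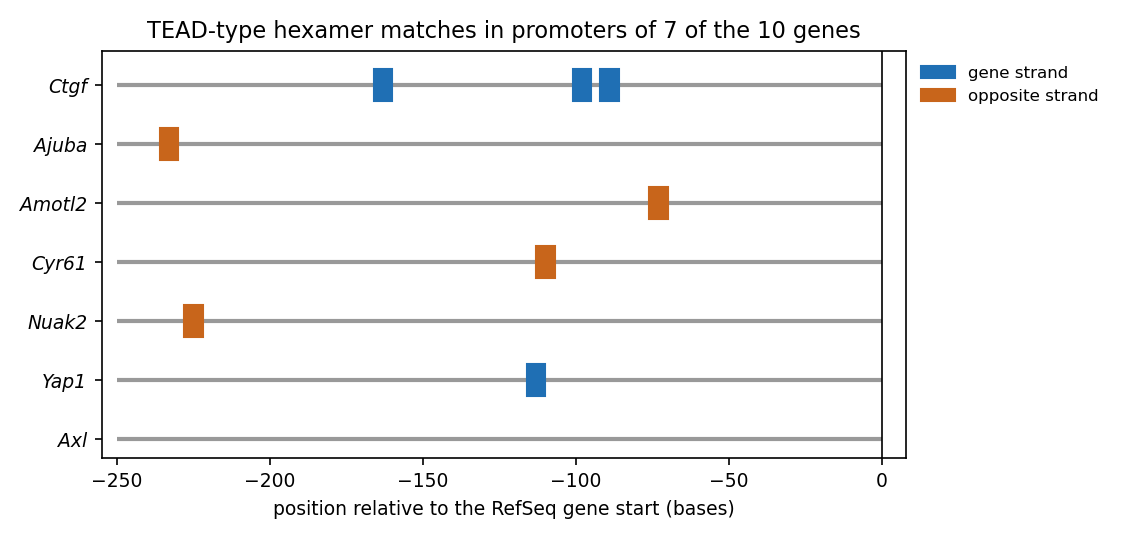
Positions of the TEAD-type hexamer in the 250 bases before the RefSeq start of 7 of the 10 genes, in bases relative to the start (x axis), with blue boxes for the gene's strand and orange boxes for the opposite strand. Ctgf holds 3 matches, 5 genes hold 1 each and Axl holds none.

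The arrays of the groups differed in ways that bear on every gene. All bur and control arrays were on slide 1, in separate rows, and all laser arrays on slide 2, so that slide and laser treatment cannot be told apart, nor can row and bur treatment. The median processed signal was 55.63 to 81.91 on laser arrays, 18.65 to 28.26 on bur arrays and 16.49 to 43.17 on control arrays, and 69.5%, 58.1% and 61.0% of spots read well above background on average. Control arrays 1 and 4 carried high neural transcripts: Mbp, a myelin gene, was at 13.29 and 12.37 on them and at 7.87 and 8.14 on control arrays 2 and 3. Of the markers of the labelled tissue all 7 osteoblast and 4 of 5 osteocyte genes passed the filter, Fgf23 being too dim, but so did all 7 endothelial, 7 of 8 neural and 7 of 9 skeletal muscle markers, so that detection alone does not set the tissue apart. In bulk samples, fewer cells of a type and less RNA per cell cannot be told apart. Levels are log2 of the quantile-normalized signal, on a scale that is relative between arrays and not between probes.

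At 24 h after bur drilling, 3 of the 9 tested genes were higher than in control bone, namely Nuak2, Rbms3 and Lats2, and none was lower at an adjusted p under 0.05 in the limma fit (6 higher and 0 lower at an unadjusted p under 0.05). In that comparison 23.4% of all 16381 genes were called, 13.7% as higher and 9.74% as lower. The median difference of the 9 genes was 0.74 log2 units against 0.08 over all genes, and 8 of the 9 had a positive sign. After laser ablation 4 of the 9 were higher than in control bone, Cyr61, Ctgf, Ajuba and Yap1, and none was lower (5 higher and 0 lower unadjusted), where 34.4% of all genes were called, 18.3% as higher and 16.2% as lower. The median of the 9 was 0.69 against 0.01 over all genes. Between laser and bur, 25.8% of all genes were called, 11.6% as higher and 14.2% as lower. Of the 9 only Yap1 was called, higher after laser, and their median was 0.05 against -0.06. The Yap1 calls rest on its brighter probe, chosen by the mean over all 12 arrays, laser arrays included. Its 2 kept probes differed by 2.49 on laser arrays but by 0.11 on control and 0.16 on bur arrays. The other probe gave -0.02 for laser against control (limma adjusted p = 0.964). All 4 values of the cut group lay above the 4 controls for 3 of the 9 genes after bur drilling and 2 after laser ablation, against 13.5% and 18.3% of all genes. The laser values lay above all bur values for 1 gene, against 13.9%. Both cut groups were set against the same 4 control arrays, so that the first pair of comparisons shares its controls.

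**Figure D2:**
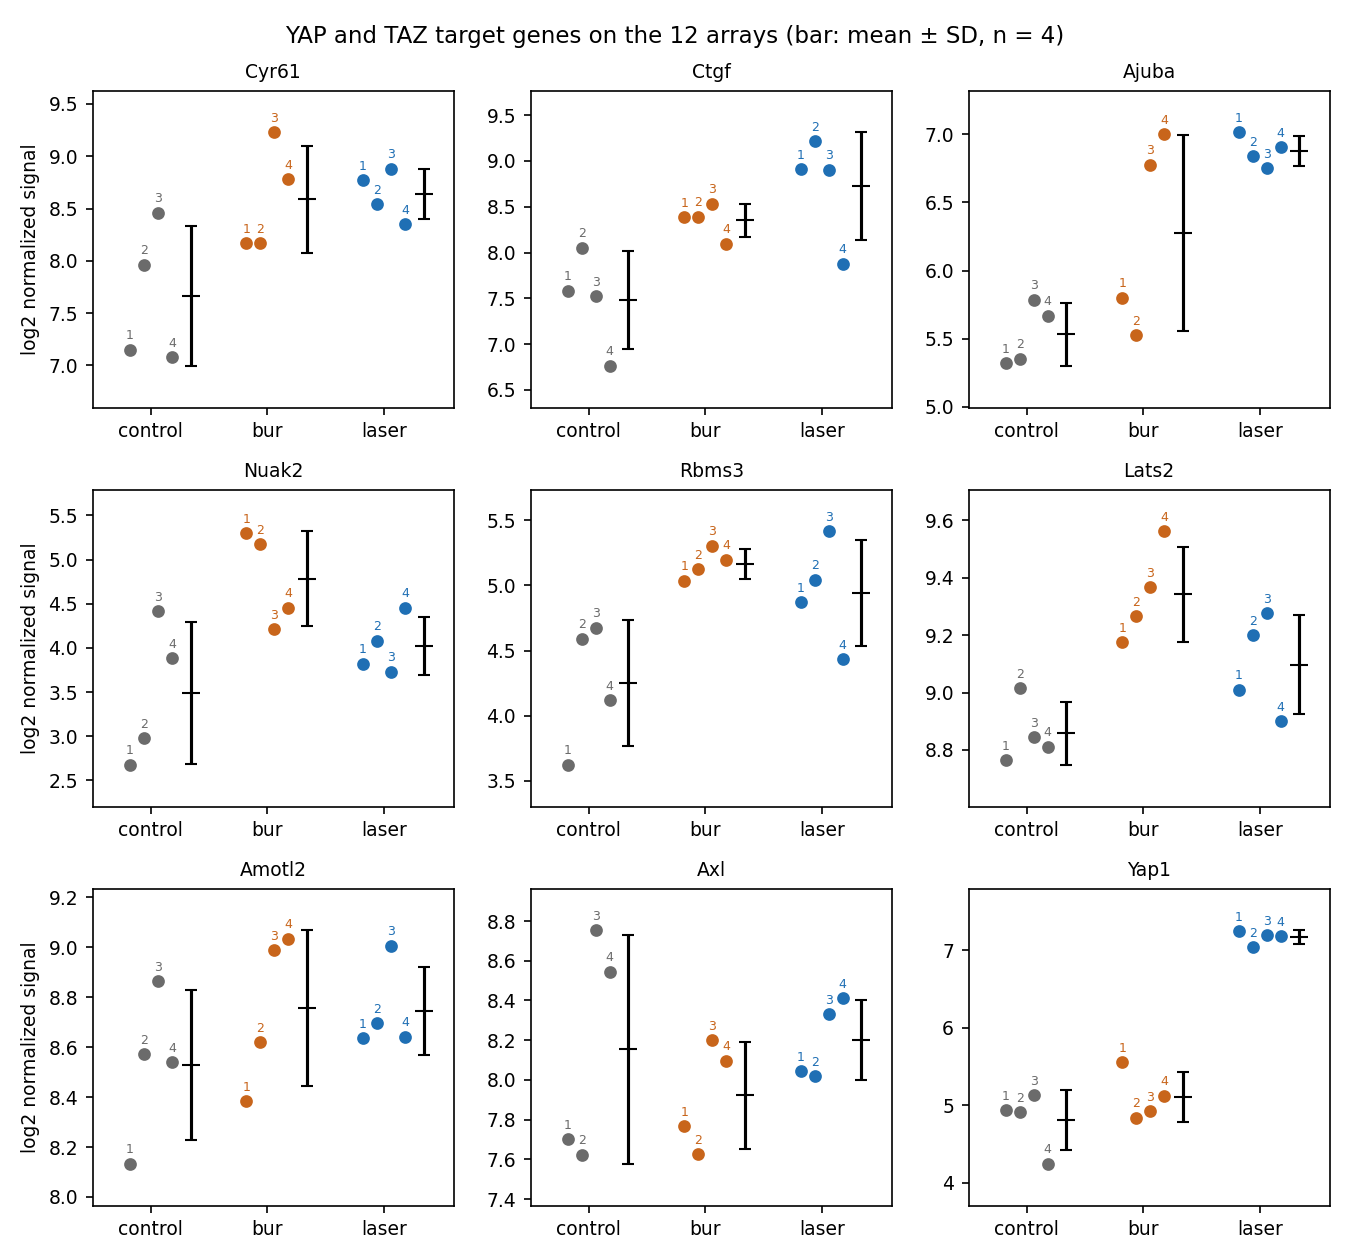
Log2 normalized signal (y axis, scaled per panel) of the 9 tested genes on each of the 12 arrays, numbered 1 to 4 within control, bur and laser, with mean and SD as bars (n = 4). All 4 laser values of Yap1 and Ajuba lie above all control values, whereas the groups of Amotl2 and Axl overlap throughout. Yap1 is shown by its brighter probe, and its other probe overlaps between the groups.

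**Figure D3:**
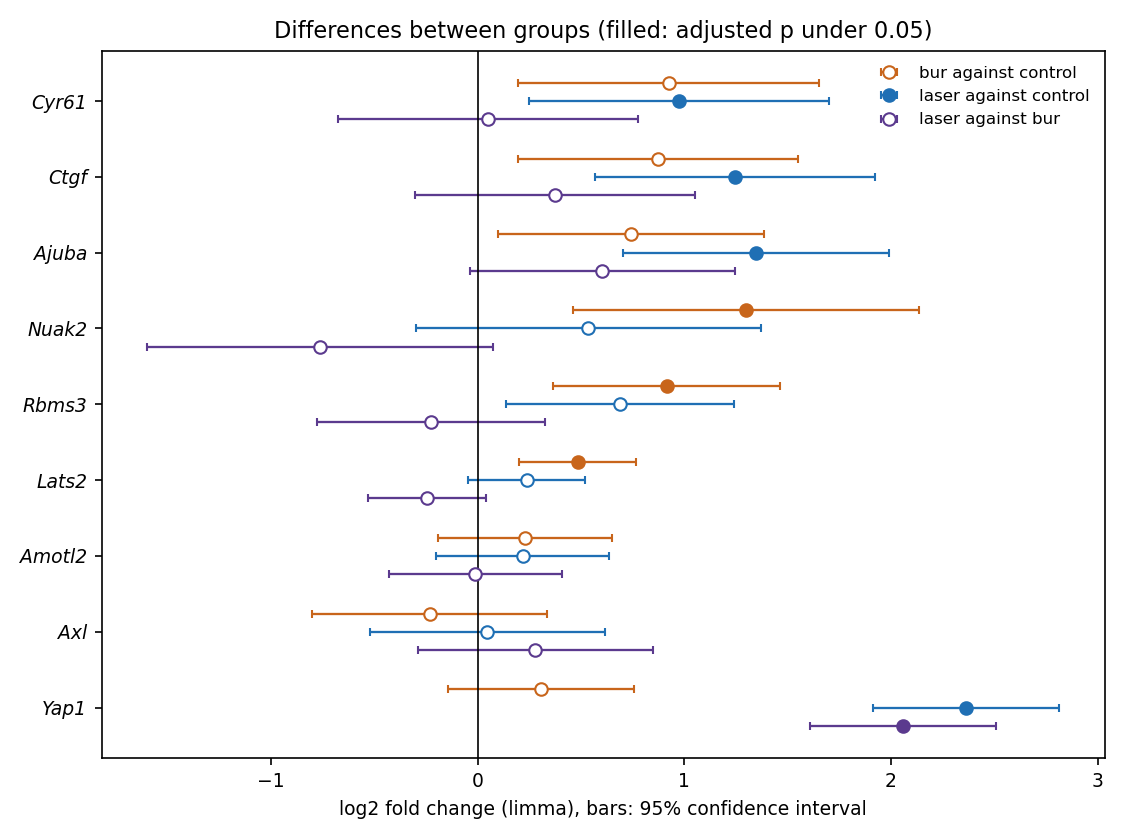
Log2 fold change (x axis) of each tested gene in the 3 comparisons, with the 95% confidence interval of the limma fit as bars and filled points where the adjusted p was under 0.05. Filled points appear for Nuak2, Rbms3 and Lats2 in bur against control, for Cyr61, Ctgf, Ajuba and Yap1 in laser against control, and for Yap1 alone in laser against bur. Yap1 is shown by its brighter probe, and its other probe passed in no comparison.

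Cyr61 encodes a secreted CCN protein that binds integrins. Its level was 7.15, 7.96, 8.46 and 7.08 on control arrays 1 to 4, 8.17, 8.17, 9.23 and 8.78 on bur arrays, and 8.77, 8.54, 8.88 and 8.35 on laser arrays. Control array 3 lay above bur arrays 1 and 2 and laser array 4, so the groups overlapped. After laser ablation Cyr61 was 1.96-fold higher than in control bone (95% interval 1.19 to 3.25, log2 difference 0.97 ± 0.33 SE, limma adjusted p = 0.0409, n = 4 per group). The difference after bur drilling was of similar size at 0.92 ± 0.33 and did not pass (adjusted p = 0.0647). The lowest control values of Cyr61 were those of arrays 1 and 4, the arrays with high neural transcripts. Without them the laser difference was 0.43 (adjusted p = 0.356), and without either of them or any single laser array the call was also lost, at 0.78 to 1.07. It was lost as well with 75th percentile scaling (0.83, adjusted p = 0.0609) and with no filter on dim probes (adjusted p = 0.0576). Between laser and bur the difference was 0.05, with a 95% interval of -0.68 to 0.78.

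Ctgf, the other CCN member of the set, encodes a secreted growth factor-binding matrix protein of connective tissue. It stood at 7.58, 8.05, 7.52 and 6.76 on control arrays, at 8.38, 8.39, 8.53 and 8.10 on bur arrays, and at 8.91, 9.21, 8.90 and 7.88 on laser arrays. All bur values lay above all control values, while laser array 4 lay below control array 2. Ctgf was 2.37-fold higher after laser ablation (1.48 to 3.79, log2 1.25 ± 0.31 SE, limma adjusted p = 0.00994), and without control arrays 1 and 4 the difference was 0.94 with an adjusted p of 0.0713. After bur drilling the difference of 0.87 ± 0.31 did not pass (adjusted p = 0.0622). Laser against bur gave 0.37, with an interval of -0.30 to 1.05. After normexp background correction the bur difference passed for Cyr61 (0.78, adjusted p = 0.0378) and Ctgf (0.67, adjusted p = 0.0484). In the authors' deposited table of comparisons Ctgf differed by 0.77 for bur against control (adjusted p = 0.00383) and by 1.17 for laser against control (adjusted p = 0.000204), and Cyr61 by 0.88 (adjusted p = 0.0135) and 0.96 (adjusted p = 0.00675). The p-values of that table, here and below, are the authors' own and not from the fit used here. In the limma fit used here the authors' log2 values gave adjusted p of 0.0414 for Ctgf and 0.0379 for Cyr61 in bur against control.

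The probes of Cyr61, Ctgf and Amotl2 were printed 10 times on each array. The SD of log2 signal among the spots of an array had a median of 0.07 for Cyr61 and Ctgf and 0.08 for Amotl2, and did not exceed 0.18. The SD of Cyr61 between the 4 control arrays was 0.67, and that of Ctgf was 0.53. The spots show the measuring noise within an array and not the variation between samples.

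Ajuba encodes a LIM-domain scaffold at cell junctions that binds LATS kinases. It was at 5.32, 5.35, 5.79 and 5.67 on control arrays, at 5.80, 5.53, 6.78 and 7.0 on bur arrays, and at 7.01, 6.84, 6.75 and 6.91 on laser arrays. The laser values were tight and all above the controls, and the bur samples divided into a pair near the controls and a pair near the laser values. Ajuba was 2.54-fold higher after laser ablation (1.63 to 3.97, log2 1.35 ± 0.29 SE, limma adjusted p = 0.00503). The bur difference was 0.74 ± 0.29 (adjusted p = 0.088), and 0.99 with an adjusted p of 0.0229 without bur array 2. Laser against bur gave 0.60, with an interval of -0.04 to 1.25 (adjusted p = 0.157). Without bur array 4 it was 0.84 (adjusted p = 0.0462). In the authors' deposited table the laser difference was 0.73 (adjusted p = 0.00909).

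Nuak2, a kinase of the AMPK-related family that acts on actomyosin, was dim. It stood at 2.68, 2.98, 4.41 and 3.88 on control arrays, only 2 of which read well above background, at 5.30, 5.17, 4.21 and 4.45 on bur arrays, and at 3.82, 4.08, 3.73 and 4.46 on laser arrays. Bur arrays 1 and 2 were the highest of the 12, and control array 3 exceeded bur array 3. Nuak2 was 2.46-fold higher after bur drilling (1.38 to 4.39, log2 1.30 ± 0.38 SE, limma adjusted p = 0.0303). This call was lost without bur array 1, bur array 2, control array 1 or control array 2, at 1.03 to 1.17, and with 75th percentile scaling at 0.90 (adjusted p = 0.0729). In the authors' deposited table it was 0.61 (adjusted p = 0.0368). The laser difference was 0.54 (-0.30 to 1.37), and that between laser and bur was -0.76 (-1.60 to 0.07), neither of which passed.

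Rbms3 encodes an RNA-binding protein with a pair of RNA recognition motifs. Its brightest probe read 3.62, 4.59, 4.68 and 4.12 on control arrays, 5.04, 5.13, 5.31 and 5.20 on bur arrays, and 4.87, 5.04, 5.41 and 4.43 on laser arrays. The bur values were close together and all above the controls, of which array 1 was not well above background. This probe was 1.89-fold higher after bur drilling (1.29 to 2.76, log2 0.91 ± 0.25 SE, limma adjusted p = 0.0223). Leaving out bur array 3, bur array 4 or control array 4 gave 0.87 to 0.90 with adjusted p of 0.0526 to 0.0535. With 75th percentile scaling it was 0.57 (adjusted p = 0.124), and the value in the authors' deposited table was 0.42 (adjusted p = 0.0257). After laser ablation the difference was 0.69 (adjusted p = 0.0532), and it passed without laser array 4 (0.86, adjusted p = 0.0261), control array 2 (0.80) or control array 3 (0.83). In the authors' deposited table the laser difference of the brightest probe passed as well, at 0.37 (adjusted p = 0.0378). A further probe of the gene gave 0.68 for bur (adjusted p = 0.155) and 0.45 for laser (adjusted p = 0.302). In the authors' table that probe gave 0.22 (adjusted p = 0.257) and 0.11 (adjusted p = 0.568). The remaining 2 Rbms3 probes read above background on 1 of the 12 arrays each.

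Lats2 encodes the kinase that phosphorylates YAP and TAZ and is itself induced by them. It was at 8.76, 9.02, 8.84 and 8.81 on control arrays, at 9.18, 9.27, 9.37 and 9.56 on bur arrays, and at 9.01, 9.20, 9.28 and 8.90 on laser arrays. The bur group lay wholly above the control group, and the laser group overlapped with it. Lats2 was 1.40-fold higher after bur drilling (1.15 to 1.70, log2 0.48 ± 0.13 SE, limma adjusted p = 0.0198), and without bur array 4 the difference was 0.41 (adjusted p = 0.0604). The laser difference of 0.24 ± 0.13 did not pass (adjusted p = 0.176). It was 0.43 with an adjusted p of 0.0057 after another background correction (normexp), and 0.45 in the authors' deposited table (adjusted p = 0.0174). Laser against bur gave -0.25, with an interval of -0.53 to 0.04.

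Amotl2, an angiomotin that binds YAP and holds it at junctions, ranged from 8.13 to 8.86 on control arrays, 8.38 to 9.03 on bur arrays and 8.64 to 9.01 on laser arrays. No comparison passed: the difference was 0.23 (-0.19 to 0.65) for bur against control, 0.22 (-0.20 to 0.64) for laser against control and -0.01 (-0.43 to 0.41) for laser against bur. Axl encodes a receptor tyrosine kinase for Gas6 that helps clear dying cells. Its brighter probe ranged from 7.62 to 8.75 on control arrays, 7.63 to 8.20 on bur arrays and 8.02 to 8.41 on laser arrays, and no comparison passed. The bur difference was -0.23 (-0.80 to 0.34) and the laser difference 0.05 (-0.52 to 0.61). A dimmer Axl probe was detected above background on 1 control array, 0 bur arrays and all 4 laser arrays, yet its laser values were not the highest. It read 1.35 to 3.76 on control, 3.08 to 3.98 on bur and 2.78 to 2.94 on laser arrays. By this probe the bur difference was 0.76 (limma adjusted p = 0.207), opposite in sign to the brighter probe. Laser against bur gave -0.54 (adjusted p = 0.358). Ankrd1, a muscle and endothelial ankyrin repeat protein and a classical YAP target, read well above background only on laser array 4, at 2.23, and lay between 0.59 and 1.40 on the other 11 arrays, so no fold is given.

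Yap1 was measured by a pair of probes that did not move alike. Both lie on the minus strand of chromosome 8 in the rn4 build of the array design, within 1 Yap1 transcript, and their starts are 39216 bases apart on the genome. The brighter one, at chr8:4846155-4846214, starts at base 402 of the transcript, and the other, at chr8:4806939-4806998, starts at base 679. They are shown because the result for Yap1 depends on which of them is read, and the second holds part of the code for a WW domain, the module through which YAP binds partner proteins.
A_64_P302952: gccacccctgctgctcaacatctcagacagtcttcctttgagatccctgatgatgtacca
A_44_P1086115: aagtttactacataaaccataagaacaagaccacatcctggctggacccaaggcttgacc

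The first of these probes read 4.94, 4.91, 5.13 and 4.25 on control arrays, 5.56, 4.84, 4.92 and 5.12 on bur arrays, and 7.25, 7.04, 7.20 and 7.18 on laser arrays. All laser values stood far above the other 8, which overlapped with each other. By this probe Yap1 was 5.15-fold higher after laser ablation than in control bone (3.77 to 7.03, log2 2.36 ± 0.21 SE, limma adjusted p = 1.68e-05) and 4.17-fold higher than after bur drilling (3.05 to 5.69, log2 2.06 ± 0.21, adjusted p = 5.23e-05). Its difference from control exceeded that of 98.1% of all genes. In the authors' deposited table the same probe differed by 0.77 (adjusted p = 0.000492) and 0.80 (adjusted p = 0.000456). Bur against control gave 0.31 ± 0.21 (adjusted p = 0.307), which turned to -0.03 under scaling by the 75th percentile.

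The second probe read 4.55, 5.18, 4.82 and 4.22 on control arrays, 4.63, 5.40, 5.05 and 4.73 on bur arrays, and 5.0, 4.86, 4.93 and 3.91 on laser arrays. The groups overlapped, and laser array 4 was the lowest of the 12. Its laser difference was -0.02 against control (-0.65 to 0.61, limma adjusted p = 0.964) and -0.28 against bur (adjusted p = 0.513). The difference between the probes was 2.49 ± 0.52 (SD) on laser arrays, 0.11 ± 0.30 on control arrays and 0.16 ± 0.64 on bur arrays. That difference was larger on laser than on control arrays by 2.38 and on laser than on bur arrays by 2.34 (exact two-sided permutation p = 0.0286 in both, the smallest that 4 against 4 arrays allow; 0.0857 adjusted over 9 tests). The test was run after the probes had been seen to differ, and covered the probe pairs of Yap1, Rbms3 and Axl in the 3 comparisons. The part of the slide in this difference cannot be told apart from that of the laser.

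**Figure D4:**
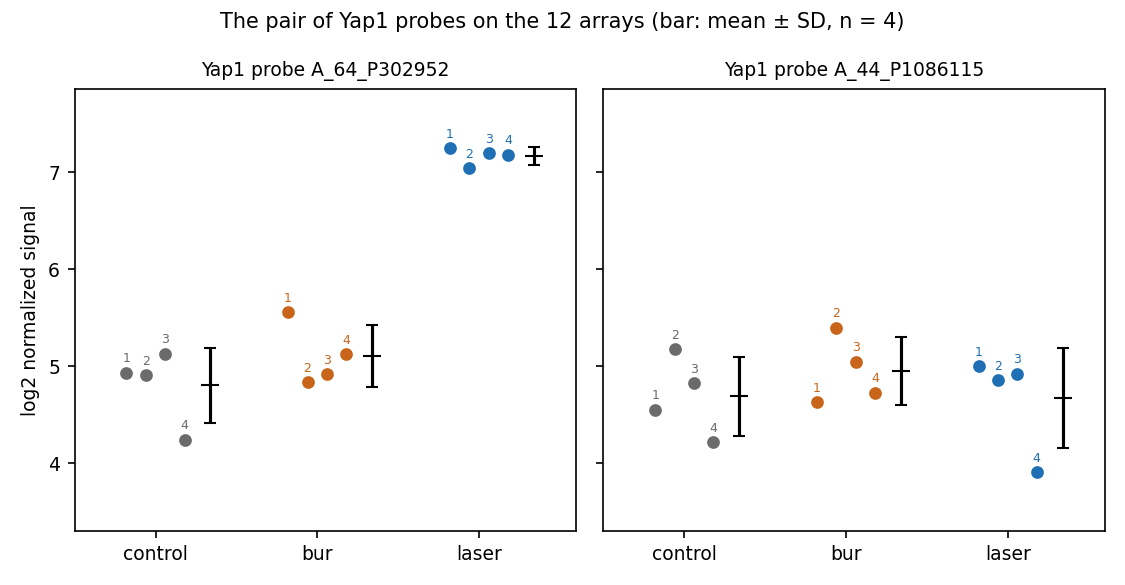
Log2 normalized signal (y axis) of the pair of Yap1 probes on each array of the control, bur and laser groups, with mean and SD as bars (n = 4). The 4 laser values stand at 7.04 to 7.25 on the left and at 3.91 to 5.0 on the right, where they overlap with the other groups.

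The Hippo pathway and TEAD list held 26 genes, of which 25 were tested. After bur drilling 23.4% of all genes were called. Of the list 7 were higher and 0 lower (12 higher and 3 lower unadjusted, limma), with a median of 0.30. That count was 2 without bur array 4, 4 without control array 2 or control array 4, and 9 without control array 3. It was 4 with 75th percentile scaling or array weights and 3 with only the 2 groups in the fit. The 4 with the smallest p were Fat4 and Dchs1, giant cadherins at the top of the pathway, with differences of 1.04 (adjusted p = 0.00569) and 0.90 (adjusted p = 0.0106), and the Ajuba relatives Wtip at 0.84 (adjusted p = 0.0209) and Limd1 at 0.55 (adjusted p = 0.0211). After laser ablation 10 were higher and 4 lower, with a median of 0.47, where 34.4% of all genes were called. Here the kinases Map4k4 at -0.86 (adjusted p = 0.000221), Taok2 at 1.06 (adjusted p = 0.000316) and Stk3, which is MST2, at 0.85 (adjusted p = 0.000484) led, followed by Limd1 at 0.93 (adjusted p = 0.000909). In laser against bur, where 25.8% of all genes were called, 3 were higher and 3 lower. They were led by Taok2 at 1.20, Map4k4 at -0.87, Taok1 at -0.74 and Stk3 at 0.51. Without bur array 4 the bur calls of Wtip (0.71, adjusted p = 0.0627) and Limd1 (0.49, adjusted p = 0.0634) were lost, and that of Limd1 also without control array 1 (0.46).

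Probes disagreed for some of these kinases, as they did for Yap1. In laser against control the mean of the probes gave 0.08 for Taok2 (limma adjusted p = 0.817) and 0.16 for Stk3 (adjusted p = 0.446), so both calls rest on the brightest probe. The other Taok2 probes gave -0.57, -0.79 and 0.62 there and the other Stk3 probe -0.52, none of which passed. A second Stk3 probe was lower after laser than after bur at -0.95 (limma adjusted p = 0.0278), opposite to the one used, and the mean of the probes gave -0.22 for Stk3 and 0.22 for Taok2 (adjusted p = 0.335 and 0.548). Of the other 3 Taok2 probes none passed in laser against bur, at -0.77, -0.05 and 0.49. Tead2, the only TEAD gene called, lay outside the naming rule and was singled out after its values were seen. It averaged 4.23 in control, 5.32 in bur and 6.19 in laser bone, 2.13-fold higher after bur drilling (1.30 to 3.49, adjusted p = 0.0327) and 3.88-fold higher after laser ablation (2.36 to 6.36, adjusted p = 0.00111). Of its control arrays 3 of 4 read above background, and the bur call was lost without bur array 1, 3 or 4 or control array 2 or 4, at 0.85 to 1.12. Wwtr1, which encodes TAZ, was also singled out: it averaged 2.75 in control bone, where 2 of 4 arrays read above background, and 4.13 after bur drilling (log2 difference 1.38, adjusted p = 0.0496). That call was lost without any single bur or control array other than control array 3, at 0.91 to 1.5.

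Of 16 other published YAP and TAZ targets, 13 were tested: 2 were higher and 1 lower after bur drilling, with a median of 0.17, where 23.4% of all genes were called. After laser ablation 1 was higher and 2 lower, with a median of 0.13, where 34.4% of all genes were called. After bur drilling Gadd45a, a DNA damage and stress gene, was lower by a log2 difference of -1.05 (adjusted p = 0.00382). Myof, a membrane repair ferlin, was higher at 0.88 (adjusted p = 0.0118), as was Nt5e, the adenosine-producing ectoenzyme CD73, at 1.47 (adjusted p = 0.0135), while Igfbp3 gave 1.04 (adjusted p = 0.0716). After laser ablation Asap1 was lower at -0.95 (adjusted p = 0.00304), Tgfb2 higher at 1.16 (adjusted p = 0.0356) and Thbs1, a matrix glycoprotein, lower at -0.69 (adjusted p = 0.0424), with Gadd45a at -0.53 (adjusted p = 0.0605). In laser against bur, where 25.8% of all genes were called, 0 were higher and 3 lower (1 and 4 unadjusted). These were Asap1 at -0.96, Nt5e at -1.20 and Thbs1 at -0.77. Several of these calls hung on single arrays. In laser against control 1 gene was called without control array 2 or 4 or laser array 2, and in laser against bur 1 was called without bur array 1 or 2 or laser array 1 or 3. That of Tgfb2 was lost without control array 1, 2 or 4 or laser array 2 or 3 (0.89 to 1.12), and that of Thbs1 after laser without control array 2, 3 or 4 or laser array 1, 2 or 3 (-0.70 to -0.53). In laser against bur Nt5e lost it without bur array 1, 2 or 4 or laser array 1, 3 or 4 (-1.27 to -0.94), and Thbs1 without bur or laser array 1, 2 or 3 (-0.78 to -0.67). A second Thbs1 probe was lower in laser against control at -1.09 (limma adjusted p = 0.0226) and in laser against bur at -2.10 (adjusted p = 0.000702). Other Tgfb2 probes gave 1.11 and 0.99 after laser ablation, which passed, and 1.39, which did not (adjusted p = 0.0609).

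Relatives of the 10 genes were listed to see whether a family moved or a member alone. Of all genes 23.4% were called after bur drilling and 34.4% after laser ablation. Of 17 paralogues, 13 were tested, with 6 higher and 0 lower after bur drilling (10 and 0 unadjusted) and 4 higher and 1 lower after laser ablation. After bur drilling 2 were called without bur array 4 and 3 with only the 2 groups in the fit. After laser ablation 2 were called without laser array 2, 3 without control array 4 or laser array 1, and 8 with array weights. Several, such as Limd1, Wtip and Wwtr1, also stand in the Hippo list. Mertk, the relative of Axl on macrophages, was 2.96-fold higher after bur drilling (2.37 to 3.68, limma adjusted p = 0.000251) and 1.47-fold higher after laser ablation (1.18 to 1.83, adjusted p = 0.0127), and was lower in laser than in bur at a log2 difference of -1.01 (adjusted p = 0.000602). Monocyte and macrophage markers moved beside it: 6 of 7 were higher after bur drilling and 4 of 7 after laser ablation, with summed levels of 11.36 to 12.41 in control, 12.86 to 13.29 in bur and 12.19 to 12.59 in laser samples on the log2 scale. Their part in the Mertk difference was not tested. Rbms1, the relative of Rbms3, was higher after bur drilling at 0.85 (adjusted p = 0.00599) and lower in laser than in bur at -1.14 (adjusted p = 0.000992). Among the CCN genes, Wisp2 (Ccn5) was higher after laser ablation at 0.89 (adjusted p = 0.0206) and Nov (Ccn3) lower at -1.10 (adjusted p = 0.0234). The call of Wisp2 was lost without control array 4 or laser array 2 or 3 (0.73 to 0.78), and that of Nov without control array 3 or 4 or laser array 1 or 2 (-1.11 to -0.98). A second Mertk probe gave 0.65 after laser ablation (adjusted p = 0.144).

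Genes of the actin-sensing MRTF and SRF factors, which respond to the same cytoskeletal tension, were 14 tested of 15. After bur drilling 3 were higher and 0 lower (3 and 1 unadjusted), and after laser ablation 6 were higher and 1 lower, with medians of 0.12 and 0.39. Of all genes 23.4% and 34.4% were called in these comparisons. Tagln, an actin-binding protein of contractile cells, was 2.24-fold higher after bur drilling (1.78 to 2.82, limma adjusted p = 0.000551) and 2.68-fold higher after laser ablation (2.13 to 3.37, adjusted p = 6.5e-05). Acta2, the smooth muscle actin of myofibroblasts, was 1.64-fold higher (adjusted p = 0.0308) and 2.23-fold higher (adjusted p = 0.00178), and the LIM protein gene Fhl2 rose after bur drilling by 1.26 log2 units (adjusted p = 0.0042), while Vcl gave -0.81 (adjusted p = 0.0548). The bur call of Acta2 was lost without bur array 2, 3 or 4 or control array 1 or 4 (0.58 to 0.72), and with 75th percentile scaling (0.38, adjusted p = 0.272). The tropomyosin gene Tpm2 was higher after laser than in control bone at 1.72 (adjusted p = 3.06e-05) and than after bur drilling at 1.49 (adjusted p = 0.000101), although its other 2 probes gave 0.15 and 0.02 in laser against bur. Actg1 was higher after laser in both comparisons, at 0.99 (adjusted p = 0.00133) and 1.02 (adjusted p = 0.00152).

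Of all genes 23.4% were called after bur drilling, 34.4% after laser ablation and 25.8% between laser and bur. Mechanosensors and focal adhesion genes numbered 16, all tested. After bur drilling 4 were higher and 0 lower (6 and 0 unadjusted): the fibronectin receptor chain Itga5 at 1.0 (adjusted p = 0.00942), the stretch-gated channel Piezo2 at 1.40 (adjusted p = 0.012), Itgav at 0.49 (adjusted p = 0.0282) and Itgb1 at 0.33 (adjusted p = 0.0391). After laser ablation only Piezo2 was higher, at 1.79 (adjusted p = 0.00216), and Rock1 at -0.62 (adjusted p = 0.00636) and Tln1, the integrin activator talin, at -1.06 (adjusted p = 0.0126) were lower, with Itga5 at 0.63 (adjusted p = 0.0512). In laser against bur 0 were higher and 3 lower (0 and 6 unadjusted), Itgb1 at -0.40, Tln1 at -0.86 and Piezo1 at -0.39. Probes differed for Piezo2 after bur drilling, where the others gave 0.38 (adjusted p = 0.712) and 2.06 (adjusted p = 0.00128), and for Rock1 after laser ablation, where the others gave -0.31 and 0.19. The bur call of Itgav was lost without bur array 3 or 4 or control array 2 or 4 (0.39 to 0.48), and that of Itgb1 without any single array other than bur array 1 and control array 2 (0.28 to 0.34). In laser against bur Tln1 lost its call without bur array 2, 3 or 4 or laser array 1, 2 or 3 (-0.91 to -0.70), and Piezo1 without bur array 2, 3 or 4 or laser array 1, 2 or 4 (-0.40 to -0.33). The number called after bur drilling was 2 without bur array 3, bur array 4 or control array 4, or with only the 2 groups in the fit, and 6 without bur array 1. In laser against control it was 5 without control array 2. Between laser and bur it was 1 without bur array 2, 3 or 4 or laser array 1 or 2. Without control arrays 1 and 4 none of the 16 was called in bur against control by limma (3 at an unadjusted p under 0.05).

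**Figure D5:**
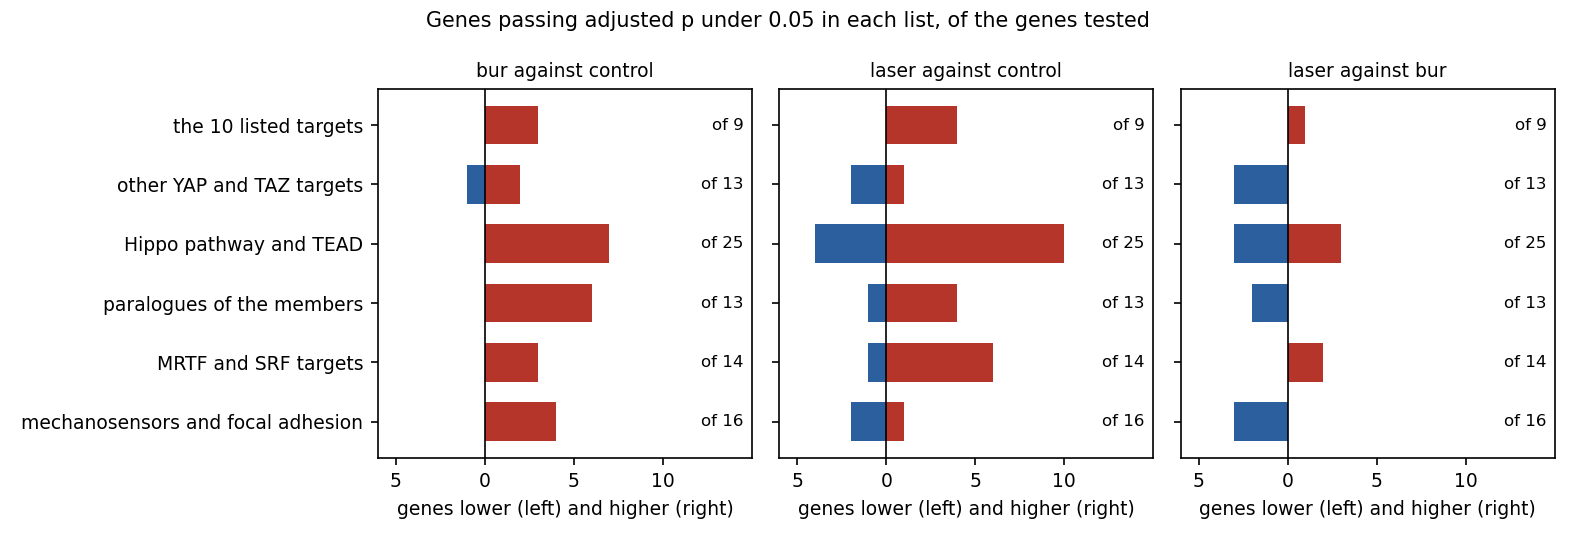
Number of genes higher (red, to the right) and lower (blue, to the left) at an adjusted p under 0.05 in each list, for the 3 comparisons, with the number tested at the right of each bar. In bur against control the Hippo and TEAD list has 7 higher genes of 25 (2 to 9 with single arrays left out) and the paralogues 6 of 13 (2 to 7). Of all genes 13.7% were called higher in that comparison.

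Markers of other cells moved with these groups as well. Of all genes 13.7% were called higher and 9.74% lower after bur drilling, and 18.3% and 16.2% after laser ablation. Summed periosteal and fibroblast markers ranged from 12.52 to 13.53 on control arrays, 13.58 to 14.50 on bur arrays and 13.54 to 14.64 on laser arrays. These sums did not overlap between cut and uncut bone, though narrowly, and 4 and 5 of 8 genes were called higher. Col3a1 weighed most in the sums of the cut groups. Dcn overlapped, at 10.77 to 12.46 on control, 11.33 to 11.60 on bur and 10.95 to 12.09 on laser arrays. Osteocyte sums ranged from 12.21 to 13.16 on control, 13.16 to 14.21 on bur and 13.22 to 14.6 on laser arrays. Of the 4 osteocyte genes tested, 1 was called higher after bur drilling and 2 after laser ablation. The bright Mepe weighed most in these sums. Sost overlapped, at 4.45 to 6.35 on control, 4.90 to 6.69 on bur and 4.27 to 5.76 on laser arrays. Endothelial markers overlapped, at 12.17 to 12.85, 11.83 to 12.61 and 12.30 to 12.46. Summed neural markers ranged from 8.98 to 13.47 on control arrays, 7.35 to 10.16 on bur arrays and 8.24 to 8.92 on laser arrays. Erythroid markers were lower for 6 of 6 in both cut groups, at 17.10 to 17.33 on control, 15.32 to 16.36 on bur and 15.54 to 15.96 on laser arrays. Neutrophil sums were 15.59 to 16.13, 15.08 to 15.78 and 16.54 to 16.99, with the laser arrays above all others. There 2 of 6 markers were called higher than in control bone, but the median difference of the 6 was -0.18. The bright S100a8 and S100a9 weighed most in these sums. A second S100a8 probe was lower in laser against control at -0.97 (limma adjusted p = 0.0365), opposite to the one used. Osteoblast sums were 16.42 to 17.48, 16.99 to 17.55 and 17.65 to 18.10, also highest on laser arrays, where 4 of 7 were called higher. Of 5 epidermal markers 4 were called higher after laser ablation and 0 after bur drilling, at sums of 6.03 to 6.37 on control, 6.02 to 6.90 on bur and 6.50 to 6.77 on laser arrays. Krt5, Krt14 and Krt15 were dim, at 0.86 to 3.30 over the 12 arrays. Such probes can pass the filter through the 4 laser arrays alone, which read more spots above background. The calls of Krt5, Krt14 and Krt15 therefore do not decide whether epidermal transcripts were higher. Krt10, the remaining gene called, was brighter, at 5.19 to 6.05 on control and 5.85 to 6.26 on laser arrays, which overlap. Krt1 was not called higher. Skeletal muscle sums overlapped, at 6.52 to 8.72, 7.5 to 8.95 and 8.04 to 8.50. The part of these cell types in the differences of Cyr61, Ctgf and the other targets was not tested. Without control arrays 1 and 4, none of the 9 genes was called in bur against control by limma (3 higher at an unadjusted p under 0.05, median 0.41). In laser against control Ajuba and, by its brighter probe, Yap1 were then the only ones called. In the same setting the Hippo and TEAD list had 3 higher and 0 lower genes after bur drilling (6 and 1 unadjusted) and 7 higher and 3 lower after laser ablation. Other YAP and TAZ targets then had 0 higher and 1 lower after bur drilling (2 and 1 unadjusted) and 0 higher and 2 lower after laser ablation (0 and 3 unadjusted). The paralogues had 4 higher after bur drilling and 2 after laser ablation, and the MRTF and SRF targets 2 and 4.

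The genes whose pattern over the 12 arrays was most like that of Cyr61 and Ctgf were looked up among all those tested. For Cyr61 they were Angptl4 (Pearson r = 0.947), LOC103693914 (0.945), Stxbp4 (0.940), Aco1 (0.939) and Fchsd1 (0.937). For Ctgf they were Sulf1 (0.957), Timp1 (0.951), Kcne3 (0.945), Mpdz (0.932) and LOC102551814 (0.931). Timp1, an inhibitor of matrix metalloproteinases, averaged 12.40 in control, 13.99 in bur and 14.27 in laser bone, and Angptl4, a secreted lipase inhibitor, 10.25, 11.21 and 11.34. These correlations describe 12 arrays that share 3 groups and 2 slides and carry no test.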

How the data were processed

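Total RNA (200 ng) of 12 calvarial samples was labelled with Cy3, per the labels' protocols. The authors deposited 1 scanner file per array with the background-corrected intensity of every spot and its flags, per the file headers. The submitters' processing notes name Agilent Feature Extraction, version 11.0.1.1. Arrays carried 62976 spots, 4259 of them controls and 0 saturated. A further deposited table gives the authors' quantile-normalized log2 values, and deposited comparison tables give log2 fold changes with p-values. How the authors assigned probes to genes is not given in the sources used here.

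The intensity was taken to log2 and quantile normalized (R 4.3.3, limma 3.58.1). Outlier and control spots were dropped before the spots of each probe were averaged. Probes well above background on 4 or more of 12 arrays were kept, 27194 in all. Of 45598 probes 21184 were named through RefSeq (GRCr8), 2431 of them with a symbol other than the file's, and 14713 kept the file's name. A gene was its kept probe with the highest mean over all 12 arrays. All 12 arrays entered 1 limma fit without covariates, with Benjamini-Hochberg adjustment over 16381 genes and a threshold of 0.05. The steps were tested on simulated data. The number of arrays limits the precision.

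Named were all members with their probes, up to 4 genes with the smallest p of each further list, and the 5 genes most like Cyr61 and Ctgf. The members, lists and settings were chosen with earlier results of these data known. Alternatives covered scaling, background correction, filter, choice of probe, samples in the fit, replicate block, array weights, each array left out, and the authors' values.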

Additional observations from a re-analysis of the deposited data

Results flagged for a closer look

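Within the groups of 4 arrays, 36 sets of values of the kept probes were looked at for an array far from the other 3, and 2 had one. Chance gives about 1 in 20. The Amotl2 probe was at 9.01 on laser array 3 and at 8.64, 8.70 and 8.64 on laser arrays 1, 2 and 4. The second Yap1 probe (A_44_P1086115) was at 3.91 on laser array 4 and at 5.0, 4.86 and 4.93 on laser arrays 1, 2 and 3, while the first Yap1 probe on that array, at 7.18, lay within the range of the other laser arrays.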

How the results depend on the processing

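Over all alternatives and arrays left out, 415 of the values of the 9 genes kept their direction and their side of the threshold, 28 lost and 20 gained a call, and 20 changed sign. Genes called in bur against control numbered 3837, 2476 with only these 2 groups in the fit, 2353 without control arrays 1 and 4, and 2756 to 4113 with single arrays left out. Laser against control gave 5637 and 4202 to 5469, and laser against bur 4224 and 3005 to 3985. Of the 9 genes, 3 were called in bur against control, 1 with 75th percentile scaling, 5 with normexp, 1 with only the 2 groups, 0 without control arrays 1 and 4 (limma, 3 unadjusted), 5 with the authors' deposited log2 values and 1 to 4 with single arrays left out, the lowest without bur array 4. In laser against control 4 were called, 2 without control arrays 1 and 4, and 3 to 5 with single arrays left out. In laser against bur the count was 1, and 2 without bur array 4. Yap1 stayed called in both laser comparisons in every setting, at 0.77 to 2.47 against control, the lowest with the authors' values. No setting read Yap1 by its second probe alone. That probe gave -0.02 against control (limma adjusted p = 0.964) and -0.28 against bur (adjusted p = 0.513). List counts moved by over 1.5 times in these further settings. After bur drilling MRTF and SRF targets went from 3 to 5 with normexp or the authors' values. After laser ablation mechanosensors went from 3 to 6 with normexp, array weights or the authors' values and to 5 with probes above background on all 12 arrays, and other targets from 3 to 1 with no filter. Between laser and bur mechanosensors went from 3 to 5 with that stricter filter or only the 2 groups and to 6 with array weights, which also gave 5 other targets in place of 3 and 4 paralogues in place of 2.

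The labels name no shared animal, litter or day for the replicate numbers, so the main fit did not pair the samples. Deviations of same-numbered arrays correlated at 0.085 to 0.201 for bur and control, and at -0.105 to 0.251 for laser and control. Not every array correlated best with its own number (3 of 4 did for bur and control). Some genes did follow the number: Mpo and Elane were lower on arrays 1 and 2 than on arrays 3 and 4 in each group. The number is also the array's column on its slide. With the number as a replicate block 4, 5 and 1 of the 9 genes were called in the 3 comparisons, among 3990, 5934 and 4408 genes. In bur against control Ctgf (adjusted p = 0.0105) and Cyr61 (0.0351) then passed and Nuak2 did not (0.0619), and Rbms3 passed after laser ablation (0.0261). Other YAP and TAZ targets called after bur drilling went from 3 to 6 with the block. Scaling by the 75th percentile moved the median of all genes in bur against control from 0.08 to -0.08 and the share of higher calls from 58.4% to 42.3%. That share was 47.7% without control arrays 1 and 4, and in laser against bur it fell from 44.9% to 32.7% when probes had to be above background on all 12 arrays.

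Only differences that did not pass changed sign among the 9 genes. Yap1 in bur against control became -0.031 with 75th percentile scaling and -0.033 with the authors' values. Axl became 0.26 in bur against control and -0.13 in laser against bur with the mean of its probes, and -0.050 with 75th percentile scaling, -0.17 with array weights and -0.13 to 0.25 with single arrays left out in laser against control. Amotl2 in laser against bur became 0.0092 with normexp, 0.038 with the authors' values and -0.14 to 0.082 with single arrays left out. Cyr61 in laser against bur became -0.080 with array weights and -0.089 to 0.26 with single arrays left out. Among the named list genes Stk3 in laser against bur, which had passed, became -0.22 with the mean of its probes. The cause was not tested. Dim probes such as those of Nuak2 and Wwtr1 are limited by their signal over background.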
